A study of Mus musculus with 48 samples.

Results

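Described here are 10 mouse genes, Prr5l, Cyp4f39, Mybpc1, Chad, Myom1, Trim17, Ros1, Gbx2, Wfdc16 and Nppa, of 39017 annotated genes counted in the series. They were selected on their RNA counts in βTC3 cells, as genes with large changes, in either direction, under constitutively active ALK7 (ALK7-CA) or the ligand activin B. Those βTC3 changes chose the genes and are given as a description with no test. Tests are given for AJ-5257-1 cells (AJ below), with the inducer alone among them, and for the levels of untreated cells of batch 1. The pick was a list with no stated cut-off.

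ALK7, encoded by Acvr1c, is a type I receptor of the TGF-β superfamily. When activin B, GDF3 or Nodal binds, it phosphorylates SMAD2 and SMAD3, which enter the nucleus with SMAD4 and raise or lower transcription of target genes. In pancreatic islets and in tumours derived from them, ALK7 is known as a brake on beta cell growth and survival.

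In GRCm38, the GENCODE annotation places Prr5l on chromosome 2 from 101714285 to 101883027 (minus strand), Cyp4f39 on chromosome 17 from 32452723 to 32493320 (plus strand), Mybpc1 on chromosome 10 from 88518279 to 88605152 (minus strand) and Chad on chromosome 11 from 94565047 to 94569127 (plus strand). It places Myom1 on chromosome 17 from 71002633 to 71126856 (plus strand), Trim17 on chromosome 11 from 58954685 to 58973098 (plus strand) and Ros1 on chromosome 10 from 52045721 to 52195244 (minus strand). The remaining genes are Gbx2 on chromosome 1 from 89927956 to 89931179 (minus strand), Wfdc16 on chromosome 2 from 164634707 to 164638796 (minus strand) and Nppa on chromosome 4 from 148000722 to 148002079 (plus strand).

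Strand-specific sequencing of polyA RNA was done on 48 libraries in 16 groups of 3. βTC3 is an insulinoma line from transgenic mice, and AJ is, per the labels, a second line. The series title places the study in pancreatic neuroendocrine tumours (PanNET). Batch 1 held, in each line, cells with the ALK7-CA plasmid after 2 or 24 h of doxycycline (dox, 2 µg/ml), and cells with the control plasmid (vector) after 0, 2 or 24 h of dox. Batch 2 held vector cells without dox, given activin B at 50 ng/ml for 24 h or left untreated, in each line. Batch 2 also held AJ cells with the ALK7 plasmid, all of them after 24 h of dox, either given activin B or not. No group has the ALK7-CA plasmid without dox, and the ALK7 cells without ligand differ from their vector control by dox as well as by plasmid. Wells were plated in triplicate. Whether the cells carrying each plasmid were clones or pools is not stated, and nothing says that replicates came from separate cultures, and p-values therefore reflect only how far these libraries scatter, which may be technical. In bulk RNA, fewer cells that express a gene and less RNA per cell cannot be told apart.

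Libraries held 17.98 to 38.85 M counts. At this depth, 3 counts over the libraries of a group, the limit used for a gene at 0, correspond to 0.0301 to 0.0525 counts per M (CPM). Summed levels of 7 beta cell genes, Ins1 and Ins2 among them, were 15410 to 31330 CPM in βTC3 libraries and 489 to 1530 CPM in AJ libraries, and those of 6 neuroendocrine genes were 6483 to 10330 CPM in βTC3 and 5971 to 13130 CPM in AJ. Of 8 striated muscle markers, 4, Actc1, Myh6, Tnnt2 and Des, stayed under 1 CPM in every library, and the list summed to 0.913 to 4.08 CPM in βTC3 and 2.94 to 9.36 CPM in AJ. In 1 of the 3 AJ ALK7-CA libraries at 24 h, replicate 1, 9 genes typical of βTC3 stood at a median of 6.46% of their βTC3 level, whereas none of the other 26 AJ libraries exceeded 0.187%. AJ results at 24 h are therefore also given without that library where it matters. Acvr1c itself ran from 69.3 to 164 CPM in βTC3 and from 2.48 to 13.4 CPM in AJ, and was not higher in ALK7-CA cells than in vector cells at either time in either line. The counts therefore do not show the plasmid's receptor, and the labels were not checked by it.

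Prr5l, which encodes a protein that binds mTOR complex 2, had the largest log2 difference of the 10 genes with the ligand. In βTC3 cells with ALK7-CA for 24 h it had 16.7, 17.4 and 16.9 CPM, against 0.353, 0.505 and 0.366 CPM in vector cells at 24 h. With activin B it had 19.8, 19.6 and 21.5 CPM, against 0.256, 0.483 and 0.288 CPM in untreated cells. Every stimulated library stood far above every library of its control. The log2 difference was 5.39 ± 0.205 (SE) for ALK7-CA, the 10th highest of 15801 genes, and 5.91 ± 0.166 for activin B, the 2nd highest of 14429. The groups of ALK7-CA and vector cells did not overlap in 30.3% of genes at 24 h and 15.0% at 2 h, where 1.25% and 0.272% of genes passed as higher and lower, and nothing is read from the share of the 10 genes in contrasts that chose them. After only 2 h of dox, ALK7-CA cells already had 1.502, 2.00 and 2.34 CPM, against 0.449, 0.606 and 0.652 CPM in vector cells, a log2 difference of 1.76. The 24 h level was 17.0 CPM with the active receptor and 20.3 CPM with the ligand, in separate batches.

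Mybpc1, the myosin-binding protein C of slow skeletal muscle, and Myom1, myomesin of the sarcomere M-band, are muscle structural genes. Mybpc1 had 2.85, 3.98 and 2.76 CPM in βTC3 ALK7-CA cells at 24 h, against 0.0588, 0.108 and 0.0366 CPM in vector cells, which is 250 counts against 6. Activin B gave 2.70, 2.72 and 2.48 CPM, against 0.171, 0.107 and 0.144 CPM in untreated cells. At 2 h it had 5 counts in ALK7-CA cells and 5 in vector cells, and no difference was detectable at this depth.

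Myom1 had another pattern. It was at 7.67, 6.53 and 7.52 CPM in βTC3 ALK7-CA cells after 2 h and at 8.29, 6.68 and 7.55 CPM after 24 h, while vector cells had 1.27, 1.33 and 1.61 CPM at 2 h and 0.969, 1.41 and 1.61 CPM at 24 h. The difference was thus of the same size at both times, with log2 values of 2.37 ± 0.172 at 2 h and 2.52 ± 0.172 at 24 h (SE). Activin B gave 0.581, 0.953 and 0.738 CPM, against 0.897, 0.752 and 0.768 CPM in untreated cells, and these libraries overlapped. Because ALK7-CA cells without dox were not sequenced, a difference between the plasmid lines that was there before dox and an effect of the receptor within 2 h cannot be told apart. Myl12a, a myosin light chain gene that overlaps Myom1 on the other strand, had 71.5 CPM in ALK7-CA cells and 74.1 CPM in vector cells at 2 h, and 59.0 and 62.3 CPM at 24 h, in the same order of groups, and Myl12b, the nearest gene on the other side, had 129 and 136 CPM at 2 h.

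Cyp4f39 and Chad were present at 24 h of ALK7-CA and hardly otherwise. Cyp4f39, a cytochrome P450 fatty acid hydroxylase whose human relative CYP4F22 makes acylceramides of the skin barrier, had 35, 41 and 28 counts in βTC3 ALK7-CA cells at 24 h, against 0, 2 and 0 counts in vector cells. That is 104 counts against 2, a ratio per effective library size of 58.9 with a 95% interval of 15.9 to 493 (counting error only). The intervals in this paragraph pool the libraries of a group and come from contrasts that chose the genes, so they test no change. Both control counts lie in vector replicate 2, and leaving out 1 library at a time gave log2 values of 5.03 to 8.20 around 5.63, the highest without that library. With activin B it had 6 counts, against 4 in untreated cells, a ratio of 1.45 with an interval of 0.344 to 6.98. Chad, chondroadherin, a leucine-rich protein of cartilage matrix, had 43, 22 and 25 counts in ALK7-CA cells at 24 h, against 3, 0 and 0 counts in vector cells. Its log2 value of 4.92 ran from 4.44 to 7.95 with a library left out, the highest without vector replicate 1, which holds all 3 control counts. Under activin B there were 5, 5 and 2 counts, against 0, 0 and 1 in untreated cells, a ratio of 11.6 with an interval of 1.72 to 495. Neither gene had a library over 3 counts in ALK7-CA or vector cells at 2 h. Acsf2, which overlaps Chad on the opposite strand, was at 22.8 CPM in ALK7-CA cells and 13.4 CPM in vector cells at 24 h (log2 difference 0.77), much less than the change of Chad, and since the strand setting of the counting is not given, reads of the pair may not be fully separated.

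**Figure D1:**
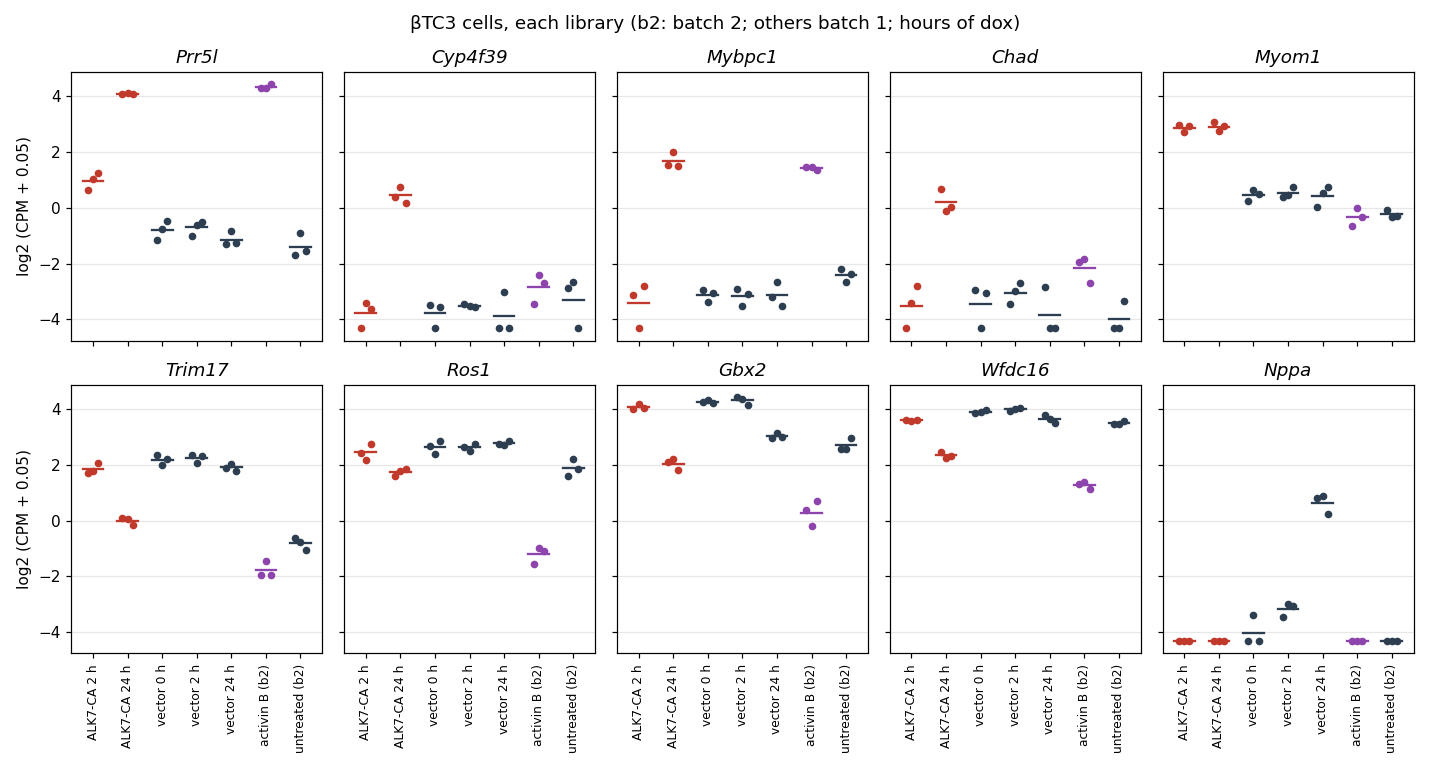
Level of each of the 10 genes in every βTC3 library, as log2 (CPM + 0.05), with the 3 libraries of a group as points and the mean of those points as a bar. Prr5l and Mybpc1 stand high in ALK7-CA cells at 24 h and with activin B, Cyp4f39 and Chad in ALK7-CA cells at 24 h, Myom1 in ALK7-CA cells at both times, and Nppa in vector cells after 24 h of dox.

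The other 5 genes were lower with the active receptor. Trim17, a TRIM family ubiquitin ligase, had 1.01, 0.994 and 0.856 CPM in βTC3 ALK7-CA cells at 24 h, against 3.67, 4.08 and 3.41 CPM in vector cells, a log2 difference of -1.94 ± 0.146 (SE). Under activin B there were 5, 7 and 4 counts, against 14, 10 and 9 in untreated cells. The 2 sets of control cells themselves differed, with 4.51 CPM in untreated vector cells of batch 1 and 0.522 CPM in those of batch 2.

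Ros1, a receptor tyrosine kinase whose ligand is NELL2, had a larger log2 difference with the ligand than with the active receptor. It had 0.291, 0.454 and 0.422 CPM with activin B, against 2.99, 4.57 and 3.60 CPM in untreated βTC3 cells, a log2 difference of -3.23 ± 0.254, the 5th lowest of 14429 genes. With ALK7-CA at 24 h it had 2.99, 3.42 and 3.58 CPM, against 6.70, 6.46 and 7.18 CPM in vector cells, a log2 difference of -1.01 ± 0.142. At 2 h the libraries overlapped, with 5.47 CPM in ALK7-CA cells and 6.13 CPM in vector cells. No test of the ligand against the receptor was made, since the comparisons lie in separate batches and chose the gene.

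Gbx2, a homeobox transcription factor that helps to place the midbrain-hindbrain boundary, and Wfdc16, a gene of the whey acidic protein family, were both lower with the active receptor and with the ligand. Gbx2 had 4.22, 4.53 and 3.50 CPM in βTC3 ALK7-CA cells at 24 h, against 7.75, 8.88 and 7.88 CPM in vector cells. With activin B it had 1.25, 0.817 and 1.58 CPM, against 5.94, 5.91 and 7.68 CPM in untreated cells, a log2 difference of -2.42 ± 0.229. Wfdc16 had 5.48, 4.65 and 4.90 CPM in ALK7-CA cells at 24 h, against 13.6, 12.3 and 11.4 CPM in vector cells. With activin B it had 2.45, 2.54 and 2.16 CPM, against 10.97, 11.1 and 11.7 CPM in untreated cells, a log2 difference of -2.22 ± 0.104. For both genes no stimulated library at 24 h reached a control library.

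Nppa encodes the precursor of atrial natriuretic peptide, the hormone of the heart atria that lowers blood pressure. In βTC3 it had 0, 0 and 0 counts in ALK7-CA cells at 24 h, against 58, 50 and 31 counts in vector cells at 24 h, which makes it at least 40.9-fold lower against a limit of 3 counts over the group. At 2 h it had 0 counts in the ALK7-CA group and 5 in the vector group. In batch 2 no count was seen in any βTC3 library, with activin B or without. The 139 counts of the vector cells at 24 h were the only sizeable level of Nppa in βTC3, and cells without dox had almost none.

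Short sequence matches in the promoters were looked up for these genes, since SMAD proteins bind known short motifs. RefSeq (GRCm38.p6) gave windows of 300 bases, 250 before and 50 after a start, for 9 of the 10 genes and 11 starts, Prr5l having 3; Trim17 was not matched. CAGAC, the core of the SMAD-binding element, with its reverse complement GTCTG, occurs in 49.6% of all 32851 windows, GGCGC, a GC-rich SMAD motif, with GCGCC, in 36.9%, and TGANTCA, the AP-1 site, in 7.81%. Cyp4f39 has 5 matches to CAGAC, and 0.21% of windows hold as many or more, and Mybpc1 and Nppa have 1 each. Gbx2 has 5 matches to GGCGC, 2 pairs of which overlap, a number reached by 5.35% of windows, and 1 of the Prr5l windows has 1. Chad, Myom1, Ros1, Wfdc16 and the other windows of Prr5l hold no match, and no window holds TGANTCA. A match is a string and not a shown binding site. The 250 bases before the start of the 2 genes with most matches, and of Nppa, are shown with the matches in capitals. Nppa counts were at 0 in βTC3 ALK7-CA cells, though not in those of AJ. The sequences are from chr17:32452473-32452722 (plus strand), chr1:89931177-89931426 (minus strand) and chr4:148000472-148000721 (plus strand).
Cyp4f39: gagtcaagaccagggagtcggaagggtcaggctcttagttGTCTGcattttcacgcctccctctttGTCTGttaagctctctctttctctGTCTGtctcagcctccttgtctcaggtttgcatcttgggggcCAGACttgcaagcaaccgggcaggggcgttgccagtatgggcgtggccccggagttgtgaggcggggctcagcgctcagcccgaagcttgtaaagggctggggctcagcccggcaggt
Gbx2: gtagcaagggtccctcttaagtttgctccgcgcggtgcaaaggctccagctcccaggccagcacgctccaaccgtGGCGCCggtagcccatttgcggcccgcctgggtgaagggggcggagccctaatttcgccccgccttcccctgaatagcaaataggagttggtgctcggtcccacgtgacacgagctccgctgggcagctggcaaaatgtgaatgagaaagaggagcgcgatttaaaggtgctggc
Nppa: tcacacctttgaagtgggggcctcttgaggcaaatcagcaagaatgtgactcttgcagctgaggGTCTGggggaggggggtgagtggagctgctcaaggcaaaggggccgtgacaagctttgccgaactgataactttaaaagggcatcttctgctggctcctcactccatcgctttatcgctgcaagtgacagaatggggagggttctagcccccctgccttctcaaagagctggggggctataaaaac
Cyp4f39 shows 4 of its 5 matches here and Gbx2 an overlapping pair, the rest lying at or after the start.

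The effect of dox alone was read by setting vector cells after dox beside vector cells without it. In βTC3 the dox-treated vector libraries are the controls of the ALK7-CA contrasts that chose the genes, so the values of the 10 genes are given with no test. Over all genes, 3674 of 15801 passed an adjusted p of 0.05 in edgeR's quasi-likelihood test after 24 h of dox (23.3%, with 10.6% rising and 12.7% falling), and groups did not overlap in 35.2%. Nppa had 1.70, 1.80 and 1.14 CPM after 24 h of dox and 0, 0.0456 and 0 CPM without dox, 139 counts against 1 (ratio 118, 95% interval 20.8 to 4681). That interval covers counting error only and is no test, since the dox libraries helped to choose the gene. Gbx2 had 7.75, 8.88 and 7.88 CPM after 24 h of dox and 19.1, 20.2 and 18.3 CPM without dox, a log2 difference of -1.22 ± 0.1101 (SE). Wfdc16 had 12.4 CPM after dox and 15.01 CPM without, a log2 difference of -0.26. These 3 genes had groups that did not overlap, and the other 7 overlapped. Cyp4f39, Mybpc1 and Chad had 6 counts or fewer in each of these groups and entered the fit through ALK7-CA cells at 24 h.

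For Gbx2 the log2 difference with dox alone (-1.22) stood beside one of -0.98 between ALK7-CA and vector cells at 24 h, and the level of ALK7-CA cells at 24 h, 4.08 CPM, beside 19.2 CPM in vector cells without dox. After 2 h of dox, 1 of 15801 genes passed in vector cells (0.00633%), groups did not overlap in 5.24% of all genes, and the groups of each of the 10 genes overlapped. Nppa had 5 counts after 2 h of dox and 1 without, and it, Cyp4f39, Mybpc1 and Chad entered this fit through a group at 24 h. Gm13054, annotated antisense to Nppa, had 1.29 CPM in βTC3 vector cells after 24 h of dox and 0.863 CPM without. Clcn6, the gene next to Nppa, had 167 CPM after dox and 160 CPM without.

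**Figure D2:**
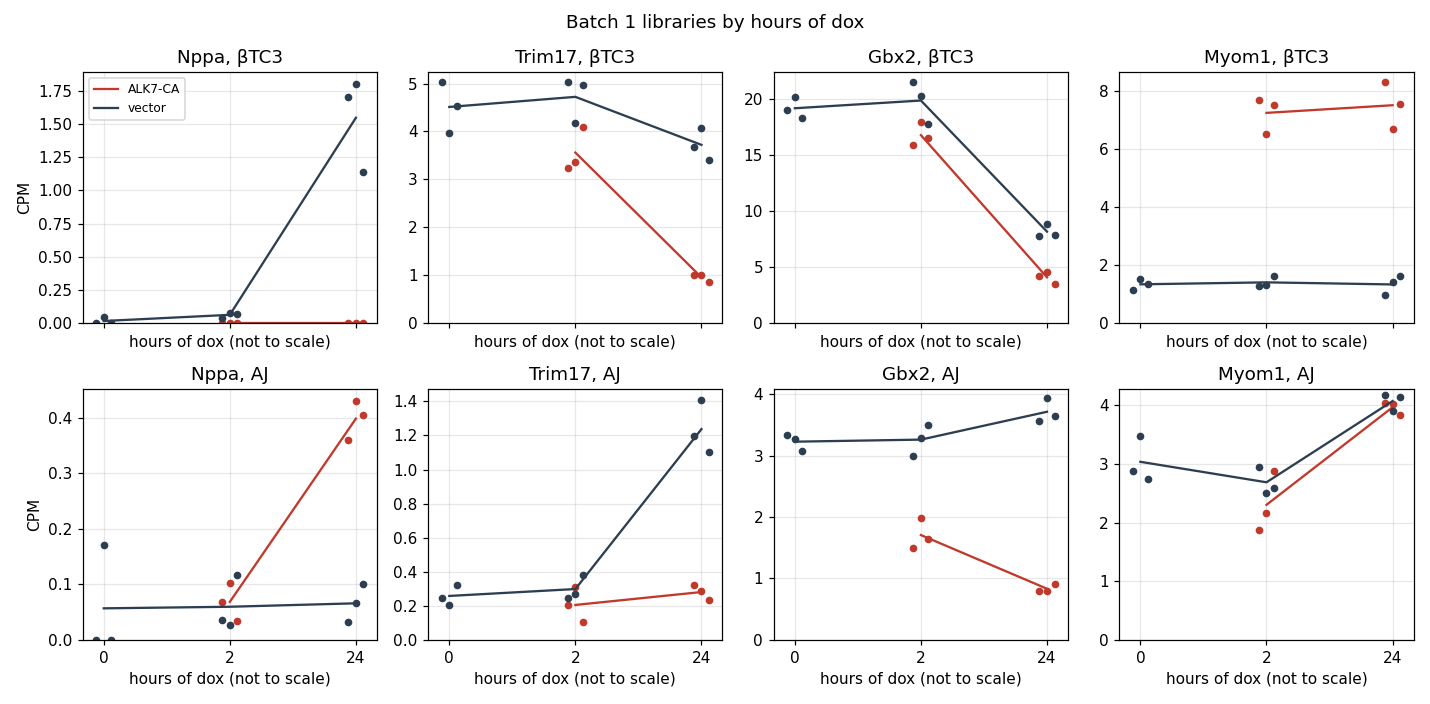
CPM of Nppa, Trim17, Gbx2 and Myom1 against hours of dox in batch 1, βTC3 in the upper row and AJ in the lower row, with ALK7-CA in red, vector in dark blue, libraries as points and lines joining group means. At 24 h, βTC3 vector cells stand at 1.55 CPM of Nppa and 8.17 CPM of Gbx2, and Trim17 in AJ stands at 0.281 CPM in ALK7-CA cells and 1.24 CPM in vector cells.

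AJ cells allowed tests of the same genes in libraries outside the βTC3 contrasts that chose them. The genes and tests were still chosen with earlier results of these data known. With ALK7-CA for 24 h, 6305 of 15487 genes passed (40.7%), so a call there is common. Of the 10 genes, Trim17, Ros1, Gbx2 and Wfdc16 fell, Nppa rose, Myom1 did not pass, and Prr5l, Cyp4f39, Mybpc1 and Chad had too few counts to enter the test. The calls of the 4 genes that fell, and that of Nppa, were kept when any library was left out. Nppa entered this fit only through ALK7-CA cells at 24 h, and Trim17 only through vector cells at 24 h.

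Trim17 had 0.320, 0.287 and 0.236 CPM in AJ ALK7-CA cells at 24 h, against 1.20, 1.41 and 1.10 CPM in vector cells (log2 change -2.13 ± 0.291, edgeR adjusted p = 5.1e-05). The control group itself had changed. Dox alone for 24 h raised Trim17 in AJ vector cells, with 1.24 ± 0.156 CPM after dox and 0.258 ± 0.0601 CPM without (SD, n = 3 each, log2 change 2.24 ± 0.290 (SE), edgeR adjusted p = 0.00208), and 0.281 CPM in ALK7-CA cells lay within the range of cells without dox. Trim17 was the only one of the 6 testable genes of the 10 to pass in that comparison, where 419 of 15487 genes did (2.71%) and 1.43% rose. It entered the fit only through vector cells after 24 h of dox, the group where it is high. The adjusted p of Trim17 in AJ comparisons with that group is therefore no independent support. Hist3h2a, a histone gene that overlaps Trim17 on the same strand, had 3.63 CPM in ALK7-CA cells and 3.43 CPM in vector cells. In βTC3 Hist3h2a fell with ALK7-CA at 24 h (3.33 CPM, against 5.30 CPM in vector cells, log2 change -0.66, edgeR adjusted p = 0.029), and under 24 h of dox alone (5.30 CPM, against 24.6 CPM without dox, log2 change -2.20, edgeR adjusted p = 4.18e-06).

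Ros1 had 0.680, 0.395 and 0.640 CPM in AJ ALK7-CA cells at 24 h, against 2.87, 2.13 and 2.98 CPM in vector cells (log2 change -2.21 ± 0.224, edgeR adjusted p = 3.08e-06). Gbx2 had 0.800, 0.789 and 0.909 CPM, against 3.57, 3.93 and 3.65 CPM in vector cells (log2 change -2.15 ± 0.131, edgeR adjusted p = 2.36e-08). Wfdc16 had 1.28, 0.574 and 0.505 CPM, against 3.66, 2.56 and 2.94 CPM in vector cells (log2 change -1.97 ± 0.315, edgeR adjusted p = 0.000204). For Wfdc16 the highest of the ALK7-CA libraries was replicate 1, the library with βTC3 transcripts, and βTC3 cells have more Wfdc16, and without that library the log2 change was -2.49. D130058E05Rik, a transcript that overlaps Gbx2 on the other strand, fell with it in this comparison (log2 change -2.08 ± 0.399, edgeR adjusted p = 0.000888).

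Nppa rose with ALK7-CA in AJ, with 9, 12 and 12 counts in ALK7-CA cells at 24 h, against 1, 2 and 3 counts in vector cells (ratio 6.13, 95% interval 2.54 to 17.9, edgeR adjusted p = 0.0116). The groups did not overlap, which was true of 47.8% of all genes tested. Nppa entered this fit only through ALK7-CA cells at 24 h, the group where it is high. Its adjusted p is therefore no independent support for a rise. The direction is opposite to that in βTC3, where the gene was seen in vector cells at 24 h and not in ALK7-CA cells, but the difference between the lines was not tested, because the βTC3 value chose the gene. Dox alone gave 6 counts in AJ vector cells, against 5 without dox. Gm13054, the antisense gene, also rose in AJ ALK7-CA cells (log2 change 1.00 ± 0.255, edgeR adjusted p = 0.00637).

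The 4 genes too low for the test had few counts in AJ. Prr5l had 31, 19 and 8 counts in ALK7-CA cells at 24 h, against 1, 1 and 0 counts in vector cells (ratio 32.4, 95% interval 8.56 to 273). With no low-count filter it rose (edgeR adjusted p = 0.000722), and it also rose without the filter and without the library that holds βTC3 transcripts (log2 change 4.21, edgeR adjusted p = 0.00327). Mybpc1 had 10, 2 and 9 counts, against 1, 1 and 0 (ratio 11.7, 95% interval 2.86 to 103). It rose without the filter (edgeR adjusted p = 0.0141) but did not pass when that library was also left out (edgeR adjusted p = 0.0582). Cyp4f39 had 5 counts against 1, and Chad 1 count against 0, in ALK7-CA and vector cells in that order. In level, AJ cells with ALK7-CA at 24 h had 1.24, 0.682 and 0.269 CPM of Prr5l (mean 0.731 CPM), while βTC3 cells with ALK7-CA had 17.0 CPM. The highest of these AJ libraries was replicate 1, the library that holds βTC3 transcripts. How much of its Prr5l comes from them was not tested.

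Myom1 did not follow βTC3 in AJ, with 4.04, 4.02 and 3.84 CPM in ALK7-CA cells at 24 h, against 4.17, 3.90 and 4.15 CPM in vector cells (log2 change -0.04 ± 0.142, edgeR adjusted p = 0.862). At 2 h it had 2.30 CPM in ALK7-CA cells and 2.69 CPM in vector cells (log2 change -0.23, edgeR adjusted p = 0.35). No excess like that of βTC3 was detectable in AJ at either time.

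**Figure D3:**
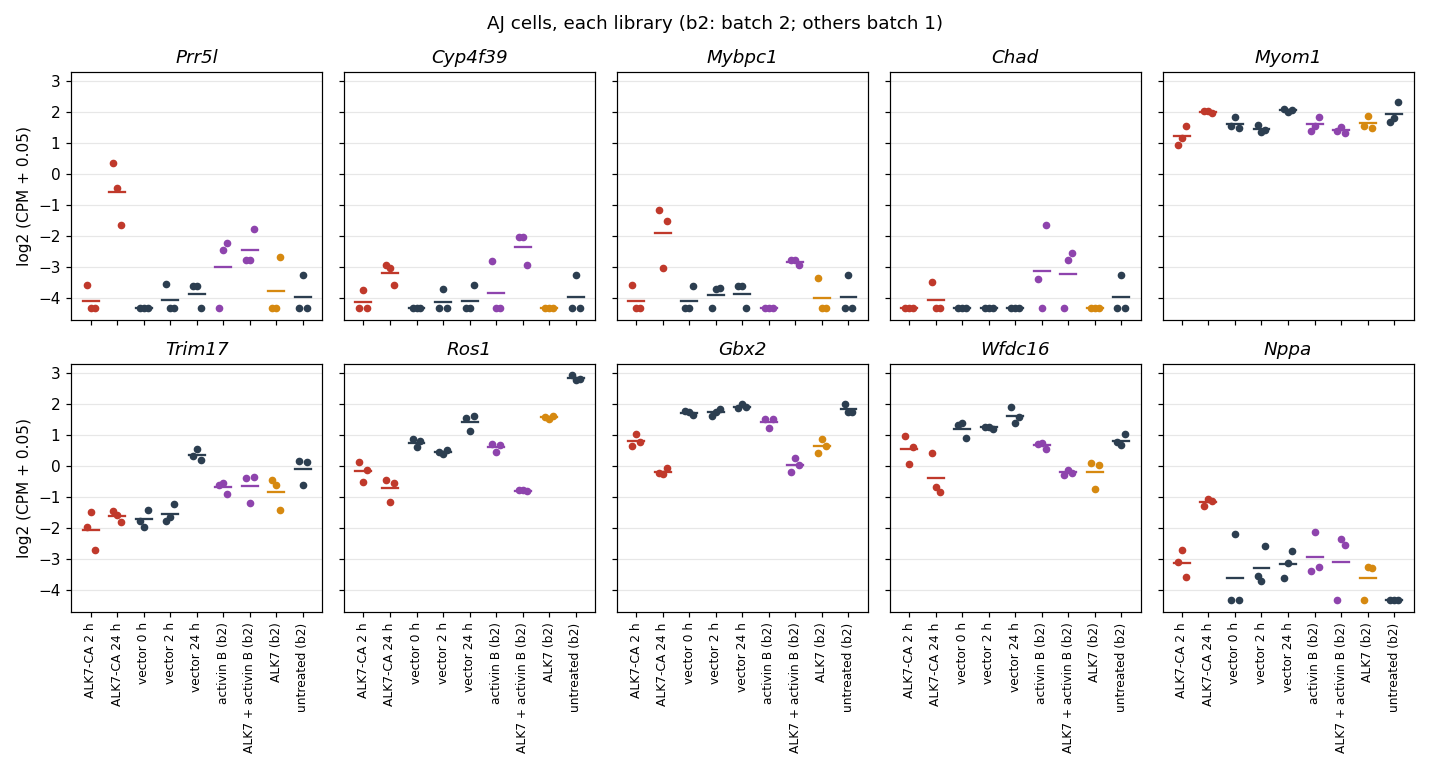
Level of each of the 10 genes in every AJ library, as log2 (CPM + 0.05), with the 3 libraries of a group as points and the mean of those points as a bar. Gbx2, Ros1 and Wfdc16 stand lower in ALK7-CA than in vector cells at both times and Nppa higher at 24 h, Trim17 is high in vector cells after 24 h of dox, and Myom1 overlaps between ALK7-CA and vector cells.

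After 2 h of ALK7-CA in AJ, 2443 of 15487 genes passed (15.8%, with 8.24% rising and 7.54% falling) and Gbx2 was the only gene of the 10 among them. It had 1.496, 1.98 and 1.64 CPM in ALK7-CA cells, against 2.99, 3.30 and 3.50 CPM in vector cells (log2 change -0.94 ± 0.121, edgeR adjusted p = 0.000132). Ros1 and Wfdc16 had log2 values of -0.63 (edgeR adjusted p = 0.0662) and -0.68 (edgeR adjusted p = 0.152), with no overlap between groups in either gene (32.4% of all genes), and both passed with the replicate number as a block (edgeR adjusted p = 0.00991 for Ros1 and 0.0414 for Wfdc16). The growth of the effect with time was tested directly, as the ALK7-CA change at 24 h minus that at 2 h. Of the 6 testable genes of the 10, 4 had a more negative change at 24 h, as did 10.2% of all genes (21.0% in either direction). They were Trim17 by -1.63, Ros1 by -1.58, Gbx2 by -1.21 and Wfdc16 by -1.29 on the log2 scale. The edgeR adjusted p was 0.0227, 0.00256, 0.000251 and 0.0489 in the same order. The Trim17 difference contains the rise of the vector cells under dox, and the Trim17 call was lost with DESeq2 (adjusted p = 0.0737) and in 4 of 12 fits with a library left out. Trim17 entered this fit only through vector cells at 24 h. The Wfdc16 call was lost in 10 of 12 such fits and with RLE scaling, the groups alone and no filter (edgeR adjusted p from 0.0502 to 0.0731 in these 3).

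With activin B in AJ vector cells, 5 of the 10 genes could be tested, and Ros1 fell. Ros1 had 1.57, 1.31 and 1.53 CPM with activin B, against 7.52, 6.70 and 6.86 CPM in untreated cells (log2 change -2.26 ± 0.120, edgeR adjusted p = 1.04e-07), the 33rd lowest change of 14872 genes. It was the only one of those 5 among the 3348 genes that passed (22.5%, with 10.9% falling). Prr5l, Cyp4f39, Mybpc1, Chad and Nppa had 6 counts or fewer in each group, and Nppa had 6 counts with activin B and 0 untreated. None of them passed without the filter (edgeR adjusted p from 0.166 to 0.877). Gbx2 had 2.77, 2.30 and 2.78 CPM with activin B, against 3.96, 3.29 and 3.29 CPM in untreated cells, with groups that did not overlap (35.0% of all genes), and did not pass (log2 change -0.43 ± 0.164, edgeR adjusted p = 0.0821). Wfdc16 was at 1.54 CPM with activin B and 1.72 CPM untreated, with overlapping libraries. Trim17 was at 0.574 CPM with activin B and 0.905 CPM untreated (edgeR adjusted p = 0.204), and Myom1 at 2.99 CPM with activin B and 3.83 CPM untreated (edgeR adjusted p = 0.201).

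In AJ cells with the ALK7 plasmid, Ros1 and Gbx2 fell with activin B. Ros1 had 0.530, 0.530 and 0.526 CPM with activin B, against 2.94, 2.82 and 3.00 CPM without (log2 change -2.45 ± 0.141, edgeR adjusted p = 1.1e-07), where 4878 genes passed (32.8%) and 47.0% had groups that did not overlap. Gbx2 fell less, with 0.982 CPM with activin B and 1.51 CPM without (log2 change -0.61 ± 0.193, edgeR adjusted p = 0.0323), a call that was lost with DESeq2 (adjusted p = 0.125), with the groups alone (edgeR adjusted p = 0.0694), with no filter (edgeR adjusted p = 0.0716) and in 4 of 6 fits with a library left out. Trim17 was at 0.612 CPM with activin B and 0.539 CPM without (log2 value 0.19, edgeR adjusted p = 0.738). Prr5l had 2, 2 and 6 counts with activin B, against 0, 0 and 2 without, and Cyp4f39 had 4, 4 and 2 counts, against 0, 0 and 0, and neither passed without the filter (edgeR adjusted p = 0.35 for Prr5l and 0.0563 for Cyp4f39). For none of the 5 genes that could be tested did the activin B effect pass a test of difference between cells with and without the ALK7 plasmid, where 381 of 14872 genes did (2.56%). For Ros1 that difference was -0.19 ± 0.182 on the log2 scale (SE, edgeR adjusted p = 0.886).

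In cells with the ALK7 plasmid and no ligand, against untreated vector cells, 3 of the 10 genes fell, where 4319 of 14872 genes passed (29.0%) and 14.6% fell; plasmid and 24 h of dox cannot be told apart here. None of these 3 genes had groups that overlapped, as for 42.3% of all genes. Ros1 had 2.92 CPM in ALK7 cells and 7.03 CPM in vector cells (log2 change -1.27 ± 0.113, edgeR adjusted p = 5.85e-06). Gbx2 had 1.51 CPM in ALK7 cells and 3.52 CPM in vector cells (log2 change -1.23 ± 0.174, edgeR adjusted p = 0.000241), and Wfdc16 had 0.849 and 1.72 CPM in the same order (log2 change -1.01 ± 0.219, edgeR adjusted p = 0.00434). In batch 1, 24 h of dox alone left these genes at log2 values of 0.70 for Ros1, 0.20 for Gbx2 and 0.43 for Wfdc16, none of which passed (edgeR adjusted p from 0.0814 to 0.514). With the replicate number as a block, Ros1 passed as higher after dox (log2 change 0.69, edgeR adjusted p = 0.0119). After 2 h of dox in AJ no gene passed (0.00%) by edgeR and 0 of the 6 testable genes of the 10 had an unadjusted p under 0.05. DESeq2 called 1 gene, not among the 10, and groups did not overlap in 9.04% of all genes and in 1 of those 6, Ros1.

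**Figure D4:**
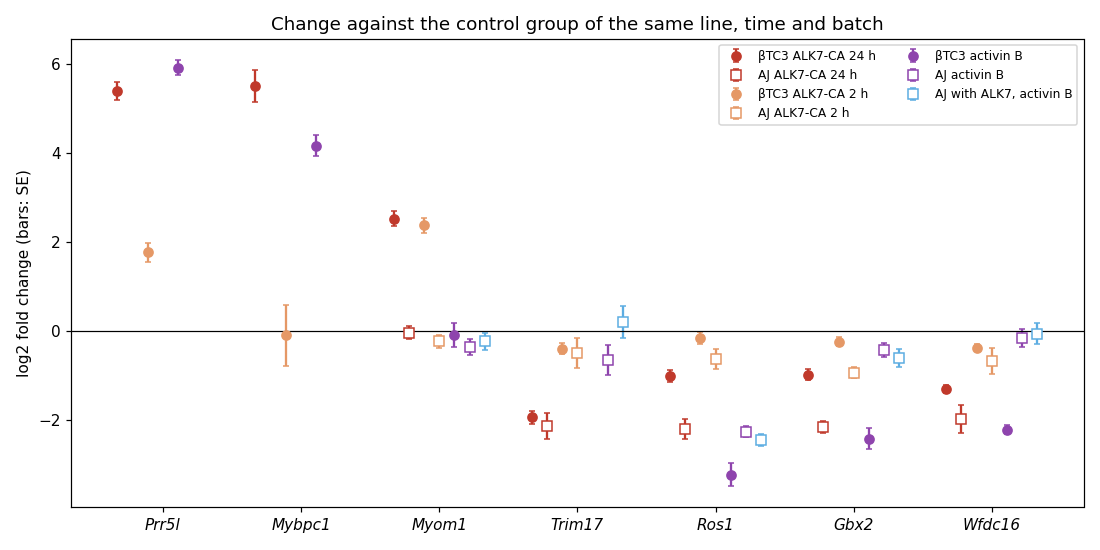
Log2 fold change with its SE for 7 genes, against the control group of the same line, time and batch, in βTC3 (filled circles) and AJ (open squares); genes that a comparison could not test are missing from it. The βTC3 values are those that chose the genes. Ros1 and Gbx2 lie below 0 in all 7 comparisons, and Myom1 lies above 0 only for ALK7-CA in βTC3.

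Where the lines started from also differed. In vector cells without dox of batch 1, βTC3 against AJ, 11283 of 15642 genes passed (72.1%), with 36.5% higher and 35.6% lower in βTC3 and 75.1% without overlap, and of the 10 genes 5 were higher and 1 lower in βTC3. Prr5l had 10, 12 and 19 counts in βTC3 and 0, 0 and 0 counts in AJ, at least 16.1-fold higher in βTC3 against a limit of 3 counts over the group (edgeR adjusted p = 0.000616). Trim17 had 4.51 ± 0.533 CPM in βTC3 and 0.258 ± 0.0601 CPM in AJ (SD, n = 3 each, edgeR adjusted p = 2.28e-06). Gbx2 had 19.2 CPM in βTC3 and 3.23 CPM in AJ, Wfdc16 15.01 and 2.28 CPM, and Ros1 6.24 and 1.64 CPM, and Myom1 was lower in βTC3, at 1.33 and 3.04 CPM, with the lines in the same order throughout (edgeR adjusted p from 7.71e-07 for Gbx2 to 0.00046 for Myom1). Prr5l and Trim17 entered this fit only through βTC3 libraries, where they are high. The adjusted p of each is therefore no independent support. A gene picked as lower under stimulation in βTC3 needs a level in βTC3 control cells. The higher βTC3 levels of Trim17, Ros1, Gbx2 and Wfdc16 are therefore not independent of the pick.

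In the untreated cells of batch 2, Trim17 and Ros1 stood in the opposite order. The βTC3 libraries there are the controls of the activin B contrast that chose the genes, so no test is given. Trim17 had 0.522 CPM in βTC3 and 0.905 CPM in AJ (log2 difference -0.79), and Ros1 had 3.72 CPM in βTC3 and 7.03 CPM in AJ (log2 difference -0.93). Gbx2, at 6.51 CPM in βTC3 and 3.52 CPM in AJ, and Wfdc16, at 11.2 and 1.72 CPM in the same order, kept theirs. Levels of Trim17 and Ros1 in vector cells without dox or ligand did not overlap between batches in either line, and levels across batches are shown side by side only.

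**Figure D5:**
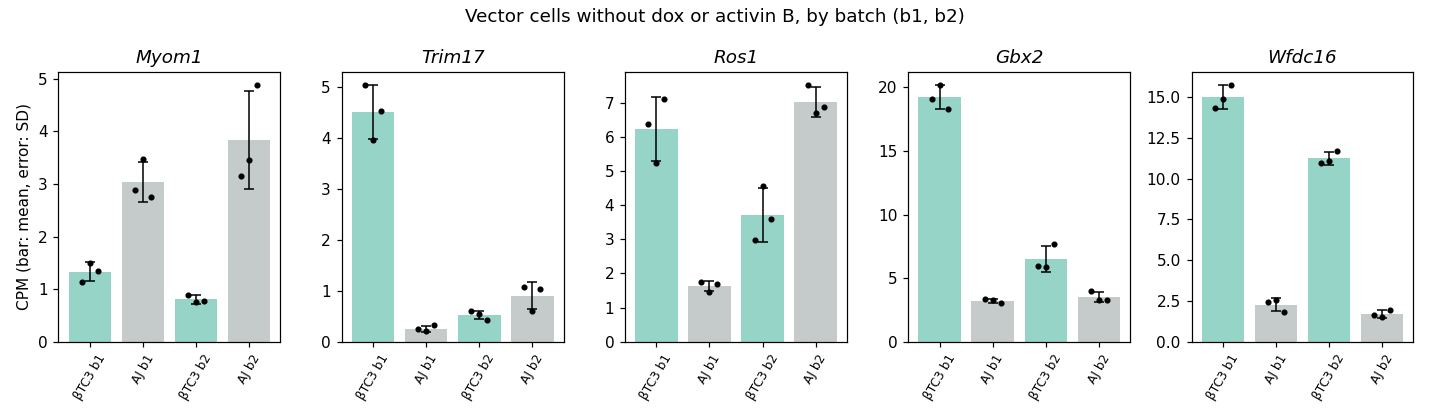
CPM of 5 genes in vector cells without dox or activin B, βTC3 beside AJ, in batch 1 (b1) and batch 2 (b2), with means as bars from 0, SD as error bars and the 3 libraries as points. Wfdc16 and Gbx2 were higher in βTC3 and Myom1 higher in AJ in both batches, whereas Trim17 and Ros1 changed places.

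Other genes of the pathways were read from lists, which were chosen with earlier results of these data known. Counts from the lists are therefore a description and no independent support. Of 25 genes listed as SMAD2/3 targets and feedback genes, the 19 that could be tested in βTC3 with ALK7-CA at 24 h had 11 that rose and none that fell, with a median log2 change of 0.79 beside -0.01 over all genes (8.02% of all genes rose). Under 24 h of dox alone in βTC3 vector cells, the control of that comparison, 2 of the 19 rose and 9 fell (12.7% of all genes fell), with a median of -0.23 beside 0.00 over all genes, for example Klf10 (43.7 CPM after dox, against 67.3 CPM without) and Bmf (2.29 CPM, against 4.11 CPM). With activin B in βTC3, 16 of 19 rose (12.3% of all genes). In AJ, 16 rose and 1 fell of 19 with ALK7-CA at 24 h (20.8% of all genes rose), and 13 of 17 rose with activin B (11.6%). Sox4, a transcription factor gene, had 393 CPM in AJ ALK7-CA cells at 24 h and 6.46 CPM in vector cells, and 150 CPM and 34.1 CPM in βTC3, in that order. Ldlrad4, which encodes an inhibitor of SMAD phosphorylation, had 83.2 CPM in AJ ALK7-CA cells and 0.574 CPM in vector cells.

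Of 6 genes of mTOR complex 2, the complex that the Prr5l protein binds, Deptor rose with ALK7-CA at 24 h in βTC3 (55.5 CPM against 41.3 CPM in vector cells) and in AJ (47.9 CPM against 28.9 CPM) but fell at 2 h in AJ (21.1 CPM against 29.9 CPM), and 4 of the 6 did not pass in AJ and 5 in βTC3. Gbx1, the nearest relative of Gbx2, fell with ALK7-CA at 24 h in βTC3 (0.709 CPM, against 1.49 CPM in vector cells) and AJ (0.0471 CPM, against 0.455 CPM), and with activin B in AJ vector cells (1.87 CPM, against 5.13 CPM untreated). In βTC3 vector cells Gbx1 also fell under 24 h of dox alone, to 1.49 CPM, against 2.41 CPM without dox. All 4 testable genes of the 9 in the mid-hindbrain homeobox list fell in AJ with ALK7-CA at 24 h, where 19.9% of all genes fell.

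Titin (Ttn), the giant spring protein of the sarcomere, fell in βTC3 ALK7-CA cells at 24 h, while Myom1 was high there. Ttn had 0.533 CPM in ALK7-CA cells and 1.45 CPM in vector cells at 24 h, and it had risen with dox in vector cells, to 1.45 CPM, against 0.597 CPM without dox. In AJ, Ckm, muscle creatine kinase, rose with ALK7-CA at 24 h to 2.30 CPM, against 0.108 CPM in vector cells. Of 8 CYP4F relatives 3 could be tested. Cyp4f16 rose in AJ with ALK7-CA at 24 h (log2 change 0.82, edgeR adjusted p = 4.71e-06) and in AJ ALK7 cells with activin B (0.59, edgeR adjusted p = 0.00173). Cyp4f13 rose in AJ with ALK7-CA at 24 h (0.54, edgeR adjusted p = 0.0084) and fell in βTC3 with ALK7-CA at 24 h (-0.32, edgeR adjusted p = 0.0481) and with activin B (-0.38, edgeR adjusted p = 0.0114), and in βTC3 vector cells under 24 h of dox alone (-0.31, edgeR adjusted p = 0.0347). Cyp4f17, the neighbour of Cyp4f39, did not pass in any of the comparisons of ALK7-CA or activin B with a control in either line, and in βTC3 had 6.43 CPM in ALK7-CA cells and 6.33 CPM in vector cells at 24 h. Nppb, the neighbour of Nppa and the gene of B-type natriuretic peptide, had a mean of 0.140 CPM at most in the groups compared. Nell2, which encodes the ligand of ROS1, fell with activin B in AJ cells with ALK7, with 7.01 CPM with activin B and 19.1 CPM without. In AJ vector cells Nell2 had 5.41 CPM with activin B and 7.44 CPM untreated. The ALK7 cells without ligand thus stood above untreated vector cells. Dcbld1, which lies beside Ros1, fell with it in AJ with ALK7-CA at 24 h (log2 change -1.22 ± 0.0552, edgeR adjusted p = 1.44e-09) and with activin B (log2 change -0.72, edgeR adjusted p = 5.48e-07), by less than Ros1 did.

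Likeness of pattern was measured as Pearson's r of log2 (CPM + 0.1) over the 16 group means, among 12555 genes, as a description. Groups share lines, batches and libraries, so r carries no p. The genes most like Prr5l were Adamts6 (0.969), Tdh (0.965) and Jam2 (0.963), and those most like Mybpc1 were Rbfox1 (0.948), Tdh (0.936) and Il4ra (0.923). Il4ra was also the nearest to Cyp4f39 (0.85). Gbx2 was most like Klf15 (0.964) and Wfdc16 most like Ssr4 (0.973). Ros1 was most like Akr1c13 (0.929), Trim17 most like Mccc1 (0.927) and Chad most like Cfap58 (0.901). Myom1 (0.736 with Fut4) and Nppa (0.675 with Tpt1-ps6) had no close match. Within the 10 genes, Cyp4f39 and Chad (0.93), Gbx2 and Wfdc16 (0.93) and Prr5l and Mybpc1 (0.91) were the closest pairs. By Spearman's rank correlation these pairs had 0.81, 0.93 and 0.80, and only Ros1 and Myom1 kept their nearest gene. The groups that chose the genes are among the 16, so likeness within the 10 genes is no independent support.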

How the data were processed

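PolyA RNA of 48 libraries was counted by the authors, and the deposited tables hold counts, whole numbers of reads for 39017 Ensembl genes in each library. The submitters' processing notes name bcl2fastq 2.17, cutadapt 1.4.2, HISAT2, featureCounts 1.4.4, edgeR and the build mm10. Neither the annotation nor the strand option of the counting, nor the versions of HISAT2 and edgeR, is stated, and these were not given in the sources used here. Gene symbols were looked up in GENCODE M21 on GRCm38, with 37693 identifiers matched and 1324 left without one. Library totals lay between 17.98 and 38.85 M counts. A deposited table of normalized values was not used here. No replicate pair was identical.

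Fits used edgeR 4.0.16 in R 4.3.3 with filterByExpr (minimum count 10), TMM and the quasi-likelihood test, over the libraries of 1 line and batch (of both lines for the baseline), with Benjamini-Hochberg adjustment over all genes tested at 0.05. SE is the log2 change over the square root of F. CPM uses TMM over all libraries. Folds against a group at 0 use a limit of 3 counts over the group, and count ratios have 95% intervals, which cover counting error only. The fits were tested on simulated data. The 10 genes, the lists and the tests were chosen with earlier results of these data known. All 10 genes are named, and of each list up to 2 genes with the smallest adjusted p in a comparison. Alternatives were DESeq2 1.42.0, RLE scaling, other filters, the groups alone, a replicate block and leaving out each library. Same-numbered libraries deviated together (r over 0.1 for each number, on genes with a mean log2 CPM over 4) in 10 of 10 pairs of groups in βTC3 batch 1, 1 of 1 in βTC3 batch 2, 8 of 10 in AJ batch 1 and 0 of 6 in AJ batch 2. By this measure ALK7-CA and vector cells deviated together at both times in both lines. Libraries of different numbers were not compared, and no pairing is stated in the labels. The main fits hold no replicate block.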

Additional observations from a re-analysis of the deposited data

Results flagged for a closer look

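In AJ cells the ALK7-CA effect differed between 24 h and 2 h by the edgeR test of that difference in 4 genes, Trim17 (-1.63, adjusted p = 0.0227), Ros1 (-1.58, adjusted p = 0.00256), Gbx2 (-1.21, adjusted p = 0.000251) and Wfdc16 (-1.29, adjusted p = 0.0489), all log2 values of the 24 h effect minus the 2 h effect. Leaving out 1 library ended the Wfdc16 call in 10 of 12 fits and the Trim17 call in 4 of 12. Trim17 entered the fit only through vector cells at 24 h, the group where it is high.

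Other pairs of effects went in opposite directions, and the difference was not tested. Every library stood on its side, apart from a tie for Wfdc16 in AJ. Nppa with ALK7-CA for 24 h had a fitted log2 value of -8.41 in βTC3, where its ALK7-CA libraries hold no count and the fitted size is no bound, and of 2.54 in AJ. Under 24 h of dox alone, Gbx2 had -1.22 in βTC3 and 0.20 in AJ, and Wfdc16 -0.26 in βTC3 and 0.43 in AJ. For Wfdc16 in AJ, a library after dox and a library without dox both had 2.556 CPM. That change did not pass (edgeR adjusted p = 0.514). Ros1 in AJ vector cells had 0.70 after 24 h of dox and -0.33 after 2 h.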

How the results depend on the processing

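Of the log2 values of the 10 genes recomputed under alternatives, 1150 kept their direction and side of the threshold, 32 no longer passed, 5 newly passed, 44 reversed, and 20 from comparisons without a test moved by more than the spread between replicates. In AJ with ALK7-CA at 24 h, the number of the 10 genes that rose, 1, was 0 with a filter of 1 CPM in 3 libraries, 3 with DESeq2, 3 without the filter, 2 without the filter and without ALK7-CA replicate 1 (chosen after seeing the data, as was the threshold of 0.5 CPM for transcripts of the other line), and 1 to 2 with a library left out. The number that fell with activin B in AJ cells with ALK7, 2, was 1 with DESeq2, with the groups alone and without the filter, and 1 to 2 with a library left out. In the baseline comparison, batch 2 gave log2 values of -0.79 for Trim17 and -0.93 for Ros1. Its βTC3 libraries are controls of a contrast that chose the genes, so these values are given with no test.

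The replicate block gave 3895 genes in AJ at 2 h of ALK7-CA, 3 of the 10 falling, 1603 in AJ at 24 h of dox, 2 of the 10 rising, 7165 in βTC3 at 24 h of dox, 4410 and 1136 in βTC3 with ALK7-CA at 24 h and 2 h, 4954 for the AJ difference between times and 623 for the activin B difference, and it lost no call of the 10 genes. Over AJ vector cells at 24 h of dox, 818 genes passed with DESeq2, 20 with the groups alone, 210 without the filter and 116 to 678 with a library left out. For βTC3 at 24 h of dox, where the 10 genes are described only, the groups alone gave 2135 genes over all genes tested. The log2 value of Myom1 became -0.01 there with the 1 CPM filter. At 2 h of dox, DESeq2 gave 1 gene in AJ and 4 in βTC3, the groups alone 0 in βTC3, and leaving out a library 0 to 1 in AJ and 1 to 3 in βTC3. βTC3 with ALK7-CA at 2 h gave 365 genes with DESeq2, 31 with the groups alone, 150 without the filter and 77 to 208 with a library left out.

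Leaving out a library gave 1 to 2 genes falling in AJ at 2 h of ALK7-CA, 2 to 4 for the AJ difference between times, and 239 to 363 genes for the activin B difference. Log2 values that crossed 0 when a library was left out, none of them called, were, for activin B in AJ with ALK7, Trim17 (-0.08 to 0.42) and Wfdc16 (-0.29 to 0.11); for AJ ALK7-CA at 2 h, Nppa (-0.22 to 1.11); for the activin B difference, Myom1 (-0.09 to 0.25) and Wfdc16 (-0.13 to 0.26); for AJ dox at 24 h, Nppa (-0.38 to 4.10); for AJ dox at 2 h, Gbx2 (-0.04 to 0.07), Nppa (-0.80 to 3.99) and Wfdc16 (-0.12 to 0.11); for βTC3 ALK7-CA at 2 h, Mybpc1 (-0.67 to 0.33); for βTC3 activin B, Myom1 (-0.29 to 0.08); for βTC3 dox at 24 h, Cyp4f39 (-2.75 to 0.42), Mybpc1 (-0.39 to 0.30) and Myom1 (-0.15 to 0.21); and for βTC3 dox at 2 h, Chad (-0.00 to 0.86), Gbx2 (-0.01 to 0.13), Mybpc1 (-0.28 to 0.16), Myom1 (-0.04 to 0.17), Prr5l (-0.09 to 0.29), Ros1 (-0.14 to 0.07) and Trim17 (-0.02 to 0.17). The cause of these shifts was not tested. Few counts limit Cyp4f39, Chad, Mybpc1 and Nppa.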
